A study of Neurospora crassa with 16 samples.

Results

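Copper and iron uptake were followed through 10 genes of the filamentous fungus Neurospora crassa, picked by locus out of the 9730 genes in the deposited count table. The genes are tcu-1 (NCU00830), a copper transporter; NCU00829, a ferric reductase; trm-52 (NCU03498), a multicopper oxidase; trm-51 (NCU03497), an iron permease; NCU07117, NCU06062 and NCU08167, annotated to siderophore synthesis; NCU06132 and NCU07564, siderophore iron transporters; and cmt (NCU05561), a copper metallothionein. They were named with differences between the strains already seen in these libraries, so every value given for them is a description. No p-value is printed for any of the 10. The calls given for them below, at an adjusted p threshold, are part of that description and are not evidence. The name of the set covers more than uptake, since 3 of the genes make siderophores and cmt binds copper inside the cell.

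The study grew a wild type (WT) and a second strain whose label, Δstk-12, names the kinase gene stk-12 as deleted, both from conidia in Vogel's salts on Avicel, a crystalline cellulose, under constant light. Mycelium was collected after 12 h and after 1, 3 and 5 days, with 2 libraries for each strain and time, which makes 16 libraries in 8 groups. The strain labelled Δstk-12 is called the mutant from here on. The labels do not say whether the 2 libraries of a group come from separate cultures, so p-values measure only the spread between these libraries, which may be technical.

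Fungi take up copper through Ctr-type transporters of the plasma membrane, which carry the reduced ion, and ferric reductases of the cell surface reduce copper as well as iron in yeast. Iron enters by reductive uptake, in which a multicopper oxidase hands iron to a permease and needs copper to do so, or bound to siderophores, small chelators that the fungus makes, secretes and takes back through dedicated transporters. Siderophore synthesis in N. crassa starts with the hydroxylation of ornithine and is held back by the GATA factor SRE when iron is plentiful. Metallothioneins are small cysteine-rich proteins that bind copper.

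Gene reads ran from 14946389 to 26466759 per library. Reads of stk-12 were not at 0 in the mutant but at 38.2%, 24.5%, 35.0% and 43.3% of the WT level at 12 h and days 1, 3 and 5, and the labels do not say which bases were removed. Reads of matA-1, a gene of mating type A, were 0 in all 8 mutant libraries and at least 350 in every WT library, so the strains differ at the mating type locus as well as in the label. Levels are given as CPM, reads scaled to a common library size after TMM normalisation, for replicate 1 and then replicate 2. Differences are log2 fold changes with the standard error of an edgeR quasi-likelihood fit over 8983 genes, and a gene was called at a Benjamini-Hochberg adjusted p under 0.05.

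The copper transporter and the reductase showed the widest differences. The level of tcu-1 in WT was 32.0 and 28.4 CPM at 12 h, 10.8 and 10.3 at day 1, 27.2 and 29.8 at day 3, and 277 and 519.5 at day 5. In the mutant it was 35.6 and 34.2 at 12 h, 12.5 and 13.1 at day 1, 7524 and 8569 at day 3, and 1317 and 1333 at day 5. Both strains thus had their lowest level at day 1, and the mutant had its highest at day 3 where WT was still near its 12 h level. The log2 fold change of tcu-1 in the mutant against WT was 0.21 ± 0.20 (SE) at 12 h, 0.28 ± 0.25 at day 1, 8.14 ± 0.24 at day 3, which is 282-fold, and 1.73 ± 0.18 at day 5, which is 3.33-fold. At every time both mutant libraries lay above both WT libraries, but only the days 3 and 5 values were called. In bulk RNA a smaller share of expressing cells and less RNA in each cell cannot be told apart, here and for every level below.

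NCU00829, which sits next to tcu-1 on linkage group I, was also lowest at day 1 in both strains and highest in the mutant at day 3, with steps of other sizes. Its level in WT was 76.6 and 75.5 CPM at 12 h, 34.4 and 32.8 at day 1, 55.1 and 52.3 at day 3, and 95.3 and 176 at day 5. In the mutant it was 86.3 and 75.6 at 12 h, 42.7 and 41.1 at day 1, 7806 and 8489.8 at day 3, and 445 and 457 at day 5. The strains overlapped at 12 h, and the mutant libraries lay above WT at the later times. Its log2 fold change was 0.09 ± 0.18 at 12 h, 0.32 ± 0.19 at day 1, 7.24 ± 0.22 at day 3, which is 152-fold, and 1.73 ± 0.18 at day 5. By log2 fold change at day 3, tcu-1 ranked 3 and NCU00829 ranked 5 among the 8983 genes tested.

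**Figure D1:**
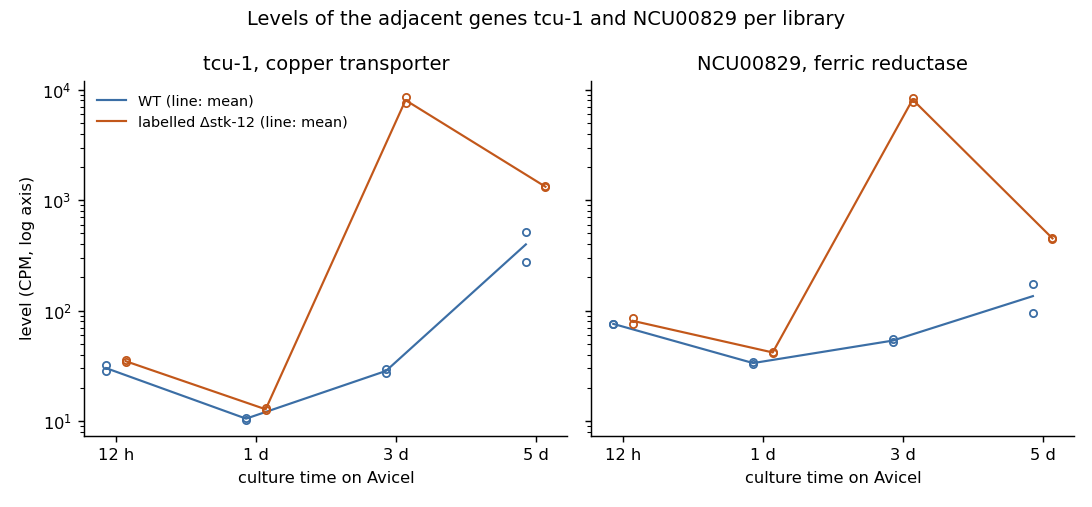
Levels of tcu-1 and NCU00829 in each library by culture time on a log axis, in CPM; circles are libraries, lines join the group means, blue is WT and orange the strain labelled Δstk-12. Both genes lie between 7524 and 8569 CPM in the mutant at day 3 and between 27.2 and 55.1 CPM in WT at that time.

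The pair took a visible share of the mutant's RNA at day 3. Reads of tcu-1 made up 0.776% and 0.849% of gene reads there and reads of NCU00829 0.805% and 0.841%. All 10 genes together held 1.68% and 1.79% of the reads in those 2 libraries, against 0.0535% and 0.0556% in WT at day 3. Per length, in the deposited RPKM, tcu-1 ranked 12 and 13 and NCU00829 ranked 16 in both libraries among all 9730 genes. In WT at day 3 the ranks were 4624 and 4352 for tcu-1 and 3615 and 3743 for NCU00829.

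The 2 genes did not keep a fixed proportion. The RPKM of tcu-1 over that of NCU00829 in the same library was 0.596 and 0.535 in WT at 12 h, 0.446 and 0.448 at day 1, 0.701 and 0.812 at day 3, and 4.14 and 4.20 at day 5. In the mutant it was 0.586 and 0.645 at 12 h, 0.418 and 0.454 at day 1, 1.37 and 1.44 at day 3, and 4.21 and 4.15 at day 5. Only at day 3 were both mutant ratios outside the WT range by more than the gap between replicates. At day 5 the ratio was alike in both strains while the levels themselves were 3.33-fold apart for each gene. The WT libraries of day 5 differed from each other 1.87-fold for tcu-1 and 1.85-fold for NCU00829, in the same direction, so that their ratio hardly moved. Without WT day 5 replicate 2 the log2 fold change of tcu-1 at day 5 was 2.25 and that of NCU00829 2.24, and without replicate 1 it was 1.35 and 1.36.

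**Figure D2:**
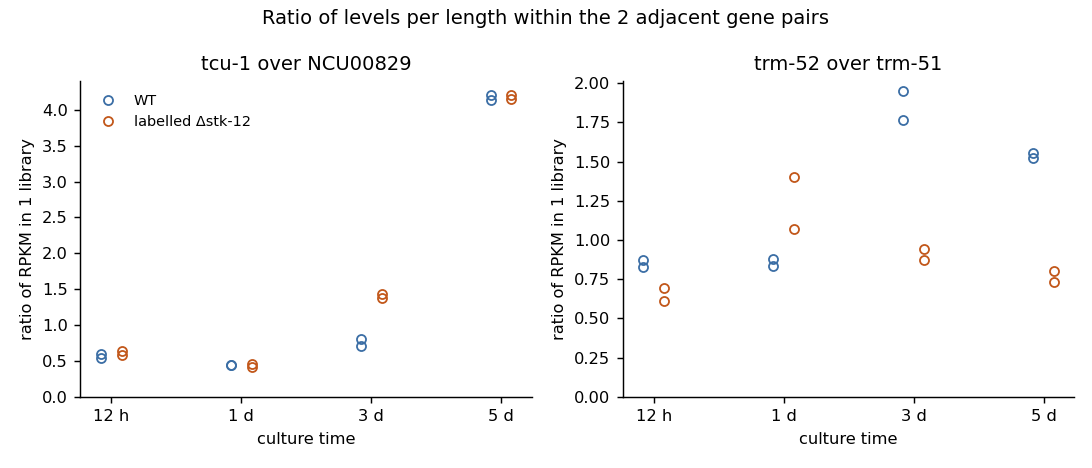
Ratio of RPKM within each library for the adjacent genes tcu-1 and NCU00829 (left) and trm-52 and trm-51 (right), by culture time on linear axes from 0; each circle is 1 library, blue WT and orange the strain labelled Δstk-12. The left ratio is 4.14 to 4.21 in all day 5 libraries, and the right ratio at day 5 is 1.52 and 1.55 in WT against 0.731 and 0.805 in the mutant.

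The reductive iron uptake pair, trm-52 and trm-51, are neighbours on linkage group II and showed smaller differences that were larger at day 5 than at day 3. The oxidase gene trm-52, annotated as Lcc3, was at 39.7 and 37.9 CPM in WT at 12 h, 56.5 and 58.4 at day 1, 49.9 and 48.6 at day 3, and 45.8 and 45.5 at day 5. The mutant had 44.9 and 51 at 12 h, 51.3 and 52.5 at day 1, 81.4 and 89.9 at day 3, and 116 and 110.1 at day 5. WT thus stayed within a 1.48-fold range of group means and the mutant libraries stood above it at days 3 and 5. The log2 fold changes were 0.30 ± 0.08 at 12 h, -0.15 ± 0.08 at day 1, 0.80 ± 0.07 at day 3 and 1.31 ± 0.07 at day 5.

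The permease gene trm-51 crossed over between the strains. It was at 28.1 and 28.2 CPM in WT at 12 h, 41.7 and 41.2 at day 1, 15.8 and 17.0 at day 3, and 18.2 and 18.4 at day 5. The mutant had 39.8 and 51.5 at 12 h, 22.6 and 30.4 at day 1, 57.4 and 59.1 at day 3, and 89.0 and 93.1 at day 5. Both mutant libraries were above WT at 12 h, below it at day 1 and above it again at days 3 and 5. The log2 fold changes were 0.69 ± 0.12, -0.64 ± 0.13, 1.83 ± 0.12 and 2.31 ± 0.12 at the 4 times in order, and each was called. At day 5 trm-51 had the highest log2 fold change of the 10 genes, at 4.97-fold. Per length the oxidase gene exceeded the permease gene in WT at day 3, where the RPKM ratio was 1.95 and 1.77, and was below it in the mutant, at 0.875 and 0.940. The order was reversed at day 1, with 0.837 and 0.877 in WT and 1.40 and 1.07 in the mutant. At 12 h the ratio was 0.873 and 0.830 in WT and 0.697 and 0.612 in the mutant.

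The 3 genes of siderophore synthesis did not move as a block. NCU07117, annotated as ornithine-N5-oxygenase, the enzyme class that opens the pathway, was at 39.9 and 37.6 CPM in WT at 12 h, 33.2 and 35.9 at day 1, 13.6 and 12.3 at day 3, and 11.5 and 12.8 at day 5. In the mutant it was 36.5 and 40.2, then 39.9 and 45.9, then 48.9 and 54.7, and 38.6 and 40.2 at day 5. The difference at the later times lay in a drop of the WT level, while mutant group means stayed within a 1.35-fold range. The log2 fold change was -0.01 ± 0.09 at 12 h, 0.31 ± 0.10 at day 1, 2.00 ± 0.10 at day 3 and 1.69 ± 0.10 at day 5.

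NCU06062 and NCU08167 carry the same deposited annotation, iucB, the name of a bacterial acyltransferase of siderophore synthesis. NCU06062 was at 38.8 and 36.2 CPM in WT at 12 h, 19.9 and 19.7 at day 1, 16.4 and 13.9 at day 3, and 18.2 and 19.5 at day 5. In the mutant it was 26.3 and 27.8 at 12 h, 24.0 and 20.5 at day 1, 181 and 185 at day 3, and 52.6 and 60.6 at day 5. It was below WT at 12 h and above it at the other times, with log2 fold changes of -0.47 ± 0.09, 0.16 ± 0.11, 3.59 ± 0.10 and 1.59 ± 0.10. After tcu-1 and NCU00829, it had the largest fold of the 10 at day 3, at 12.0.

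NCU08167 had another course. WT libraries were at 87.6 and 89.4 CPM at 12 h, 132 and 128 at day 1, 59.8 and 63.4 at day 3, and 72.6 and 80.9 at day 5. Mutant libraries were at 95.7 and 102, then 66.8 and 82.1, then 65.4 and 75.1, and 174 and 163 at day 5. The mutant lay well below WT at day 1, just above it at day 3 and well above it at day 5. The log2 fold changes were 0.16 ± 0.09, -0.80 ± 0.09, 0.19 ± 0.09 and 1.14 ± 0.09, and the day 3 value was the only one of the 10 genes not called at that time.

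The siderophore transporter genes were both highest in the mutant at day 3. NCU06132 was at 96.8 and 97.0 CPM in WT at 12 h, 72.1 and 80.5 at day 1, 37.2 and 33.5 at day 3, and 35.1 and 36.7 at day 5. In the mutant it was 85.7 and 88.4, then 100.3 and 99.0, then 223 and 267, and 150.3 and 164 at day 5. The lowest WT group mean was 2.74-fold below the highest, while the mutant libraries of day 3 stood above all the others. The log2 fold changes were -0.15 ± 0.08, 0.38 ± 0.09, 2.79 ± 0.09 and 2.13 ± 0.09. NCU07564, annotated as mirC, was flat in WT, with group means within 1.13-fold of each other. Its WT libraries were at 28.6 and 26.6 CPM at 12 h, 29.7 and 28.3 at day 1, 26.5 and 25.3 at day 3, and 28.6 and 30.0 at day 5. The mutant had 25.6 and 25.9, then 34.5 and 32.3, then 92.5 and 92.7, and 54.7 and 55.1 at day 5. Its log2 fold change was -0.10 ± 0.07 at 12 h, 0.21 ± 0.08 at day 1, 1.84 ± 0.07 at day 3 and 0.91 ± 0.07 at day 5.

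The metallothionein gene cmt differed most at day 5. It was at 222 and 202 CPM in WT at 12 h, 271 and 244 at day 1, 157 and 168 at day 3, and 166 and 145 at day 5. The mutant had 206 and 246, then 182 and 213, then 198 and 208, and 556 and 567 at day 5. The strains overlapped at 12 h, and the mutant was lower at day 1 and higher afterwards. The log2 fold changes were 0.09 ± 0.10, -0.38 ± 0.10, 0.32 ± 0.10 and 1.85 ± 0.10. The day when cmt was highest in the mutant was thus day 5, when tcu-1 had come down from its day 3 level. Both cmt and NCU07564 overlap the next annotated locus in the NC12 annotation, NCU05560 and NCU07563. The counting strand is not given in the sources used here, so reads of overlapping genes may be shared. Those loci had log2 fold changes of -1.35 and -0.98 at day 3, the other direction. At day 5 NCU05560 was at 29.8 and 27.0 CPM in the mutant against 23.5 and 22.0 in WT, the direction of cmt. NCU07563 was then at 17.5 and 22.1 CPM in the mutant against 25.3 and 26.9 in WT. Sharing of reads was not tested.

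**Figure D3:**
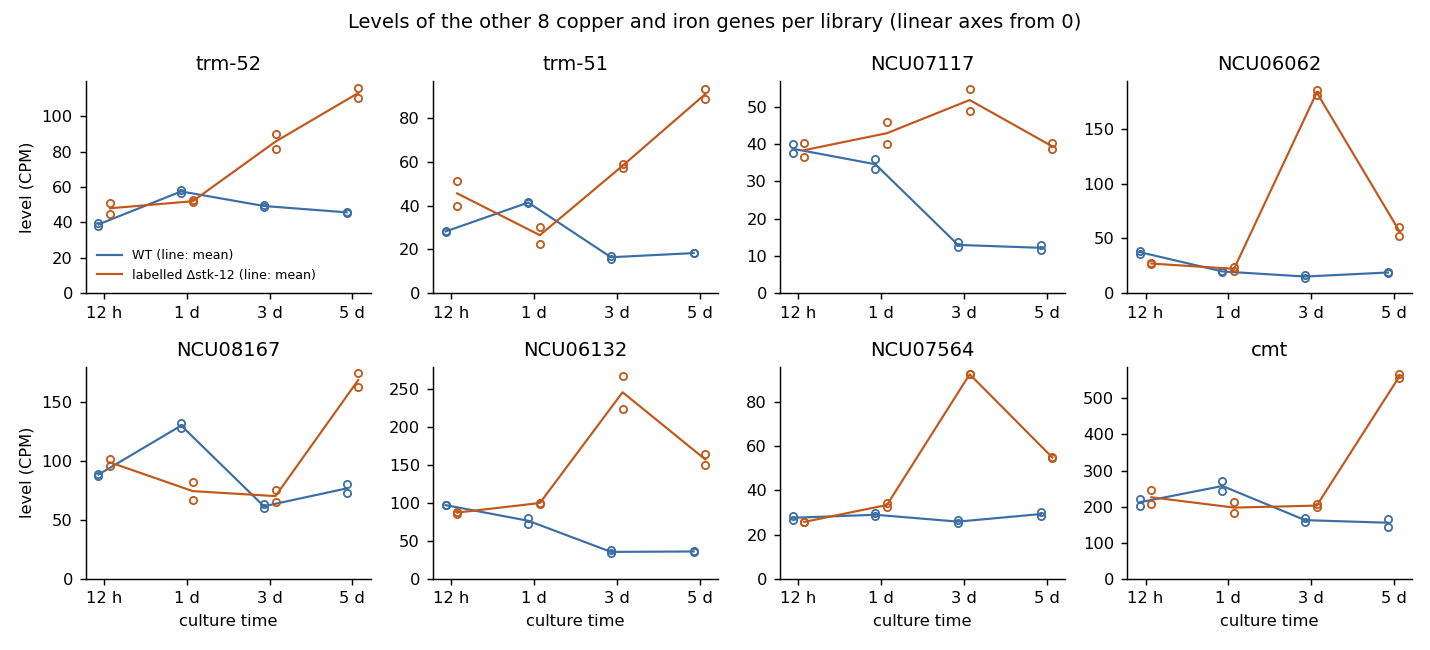
Levels of the other 8 genes in each library by culture time, in CPM on linear axes from 0; circles are libraries, lines join group means, blue is WT and orange the strain labelled Δstk-12. NCU06062, NCU06132, NCU07564 and NCU07117 are highest in the mutant at day 3, and trm-52, trm-51, NCU08167 and cmt are highest there at day 5.

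The 10 genes were counted by direction at each time. At 12 h, 3 of the 10 were called, 2 higher and 1 lower in the mutant, beside 13% of all genes called, 6.53% higher and 6.51% lower. At day 1, 6 were called, 3 in each direction, beside 37.1% of all genes, 19.1% higher and 18% lower. At day 3, 9 were called and all were higher, beside 59.5% of all genes called, 29.4% higher and 30% lower. At day 5 all 10 were called higher, beside 61.6%, 30.6% higher and 30.9% lower. The number called higher at 2-fold or more was 7 at day 3, beside 6.6% of all genes, and 9 at day 5, beside 5.14%. The median log2 fold change of the 10 was 1.92 at day 3 against -0.02 over all genes tested, and 1.71 at day 5 against -0.01. At both days both mutant libraries lay above both WT libraries for all 10, as they did for 40.2% and 40.3% of all genes. The genes were named with these differences known, so nothing is read from the counts.

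The early counts rest on single libraries. Without WT 12 h replicate 1, 1 of the 10 was called at 12 h, and without WT day 1 replicate 1, 2 were called at day 1. The 12 h call of trm-52 was lost without any 1 of 3 libraries of that time (0.21 to 0.34). The day 1 call of NCU07564 was lost without any 1 of 15 libraries (0.16 to 0.25), of cmt without WT day 1 replicate 1 (-0.30) and mutant day 1 replicate 1 (-0.27), of NCU07117 without WT day 1 replicate 1 (0.26) and mutant day 1 replicate 2 (0.21), and of NCU06132 without WT day 1 replicate 1 (0.31). At day 3 the call of cmt was lost without WT day 3 replicate 1 (0.27) and without mutant day 3 replicate 2 (0.29), and NCU08167 was called in 4 of 16 fits that left out 1 library. These were without mutant day 3 replicate 1 (0.33), WT day 5 replicate 2 (0.23) and either mutant day 1 library (0.19). Scaling by library totals in place of TMM moved the median log2 fold change of all genes to 0.18 at day 1, -0.25 at day 3 and -0.11 at day 5. Under it 4 of the 10 were higher and 2 lower at day 1, 8 were higher and none lower at day 3, and all 10 were higher at day 5. NCU08167 at day 3 was then -0.04, and cmt was not called at 0.09. Measured from the shifted median of all genes, the median of the 10 was 1.94 at day 3 and 1.72 at day 5.

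**Figure D4:**
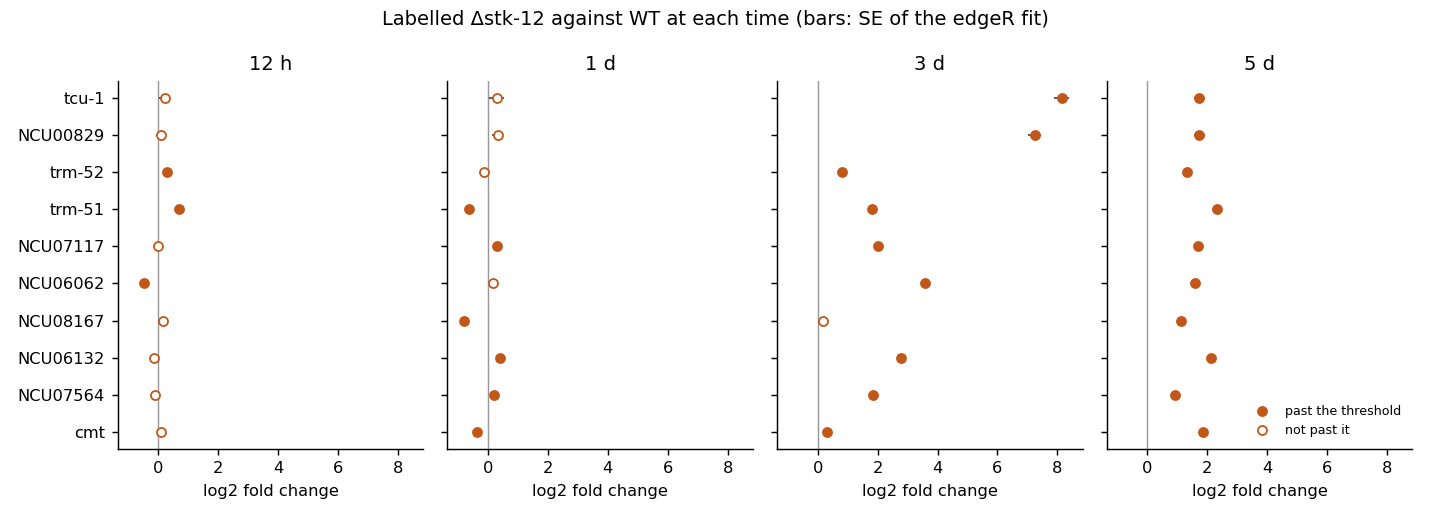
Log2 fold change of the mutant against WT for each of the 10 genes at 12 h and days 1, 3 and 5; points are edgeR estimates, bars their SE (often narrower than the point), and filled points are called at an adjusted p under 0.05. Points scatter around 0 at the first 2 times, reach 8.14 for tcu-1 and 7.24 for NCU00829 at day 3, and lie between 0.91 and 2.31 at day 5.

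Within WT, 8 of the 10 were called between 12 h and day 1, 4 higher and 4 lower, beside 56.8% of all genes, 26.1% higher and 30.7% lower. The highest rises were of trm-52, at a log2 change of 0.57 ± 0.08, and trm-51 and NCU08167, both at 0.56, and the largest falls were of tcu-1, at -1.52 ± 0.23, and NCU00829, at -1.18 ± 0.19. From day 1 to day 3, 9 were called, 2 higher and 7 lower, beside 79%, of which 41.9% were higher and 37.1% lower. The 2 were tcu-1, at 1.43 ± 0.23, and NCU00829, at 0.68 ± 0.19, and the largest falls were of NCU07117, at -1.42 ± 0.11, and trm-51, at -1.34 ± 0.13. With library totals, where the median of all genes over this step was 0.59, the split was 4 higher and 4 lower. Under that scaling trm-52 at 0.27 and NCU07564 at 0.33 were called higher. From day 3 to day 5, 4 were called, all higher, beside 54.6% called and 27.1% called higher, and tcu-1 had a log2 change of 3.81 ± 0.20, or 14.0-fold. Without WT day 5 replicate 2, 2 of the 4 were left, tcu-1 at 3.28 and NCU00829 at 0.83 against 1.34 with it.

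Within the mutant, 6 of the 10 were called between 12 h and day 1, 1 higher and 5 lower, beside 40.7% of all genes, 21.4% higher and 19.3% lower. With library totals 4 were higher and 4 lower. That scaling moves the median of all genes, and the shares beside the counts are with TMM. From day 1 to day 3, 8 were called and all were higher, beside 72.6% called and 35.6% called higher. The log2 change over this step was 9.29 ± 0.26 for tcu-1, or 627-fold, 7.60 ± 0.23 for NCU00829, 3.05 ± 0.10 for NCU06062 and 0.27 ± 0.09 for NCU07117. The call of NCU07117 was lost without mutant day 1 replicate 1 (0.17) and without mutant day 3 replicate 2 (0.18). NCU08167 and cmt were at -0.09 and 0.04. From day 3 to day 5 all 10 were called, 4 higher and 6 lower, beside 62.9%, 31.7% higher and 31.2% lower. The 6 were tcu-1, at -2.60 ± 0.19, NCU00829, at -4.17 ± 0.19, NCU06062, at -1.69 ± 0.09, NCU07564, NCU06132 and NCU07117. The 4 were cmt, at 1.47 ± 0.10, NCU08167, at 1.26 ± 0.09, trm-51 and trm-52. The reductase therefore dropped 18.1-fold while the transporter beside it dropped 6.07-fold.

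The steps themselves were compared between the strains. The difference between mutant and WT in the step from day 1 to day 3 was called for all 10 genes and higher in the mutant for each, beside 53.3% of all genes called and 26.2% called higher. For the step from 12 h to day 1, 6 were called, beside 21.7%, and for the step from day 3 to day 5, 9, beside 51.9%. The test that the strains differ by the same amount at all 4 times was called for all 10, beside 77.5%. These comparisons share libraries with each other.

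Levels per length were ordered by the deposited RPKM. In 7 of the 8 groups cmt was the highest of the 10, with group means from 319 ± 14.2 (SD, n = 2) in WT at 12 h to 1130.4 ± 5.12 in the mutant at day 5. In the mutant at day 3 tcu-1 was first, at 4627 ± 295, NCU00829 second, at 3294 ± 103, followed by cmt, at 361 ± 1.70. In WT at day 5 cmt, at 335 ± 23.4, and tcu-1, at 280.0 ± 127, overlapped, as did NCU00829, at 67.0 ± 29.7, and NCU08167, at 54.8 ± 5.62. The lowest was tcu-1 in both strains at day 1, at 5.06 ± 0.168 in WT and 6.87 ± 0.293 in the mutant, NCU07564 in both at 12 h, and NCU07117 in both at days 3 and 5. In the mutant at day 3, NCU06062, at 99.99 ± 1.31, and NCU06132, at 97.8 ± 9.64, could not be ordered.

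Across the 16 libraries the 45 pairs of these genes had Pearson correlations of log2 CPM from -0.05 to 0.94, with 13 pairs above 0.8. The points share strain and time groups, and the values are a description. The highest was of tcu-1 with NCU00829, at 0.942, followed by NCU00829 with NCU07564, at 0.935, and with NCU06062, at 0.932. NCU08167 and cmt, both called lower in the mutant at day 1 and higher at day 5, were at 0.887 with each other. NCU08167 was at -0.05 with NCU00829 and 0.05 with tcu-1.

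Among the other genes tested, the one most like tcu-1 over the 16 libraries was tcu-3 (NCU07428), annotated as a copper transporter, at a correlation of 0.986. The next were NCU08194, at 0.978, and NCU07353, at 0.974. The one most like NCU00829 was sod-2 (NCU01213), a superoxide dismutase, at 0.985, with 2394 ± 144 CPM in the mutant at day 3 and 88.8 ± 4.95 in WT. It was also second for NCU06062, at 0.951, after NCU04721, a neutral ceramidase, at 0.959. For NCU07564 the nearest was NCU08784, at 0.991, for cmt NCU03781, a CobW domain gene, at 0.974, for trm-52 NCU04270, at 0.959, and for trm-51 NCU06578, at 0.931. For NCU08167 it was NCU02504, at 0.962, for NCU07117 NCU08560, at 0.973, and for NCU06132 NCU00496, at 0.954. Also among the 3 nearest to NCU07117 was abc-2 (NCU08439), at 0.965, and among those nearest to NCU06132 NCU08440, at 0.951, which are neighbouring loci beside the peptide synthetase gene NCU08441.

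A wider set of 86 metal genes was taken with the 10 left out, of which 85 were tested. The 4 lists were copper (15 genes), iron uptake (7), iron use (25) and other metal transport (39). Genes entered by annotation words or, in the last list, also by a trm symbol. The peptide synthetase genes NCU07119 and NCU08441 were put in the iron uptake list by locus. In the copper list 10 of 15 were called higher in the mutant at day 3 and 1 lower, with a median log2 fold change of 0.40 against -0.02 over all genes. At day 5 it was 3 higher and 5 lower. The shares over all genes were 29.4% higher and 30% lower at day 3 and 30.6% and 30.9% at day 5, for this list and those that follow. The word search also took in 4 electron transfer proteins in this list, and without them 7 of 11 were higher and 1 lower at day 3. With library totals the copper list had 5 higher and 2 lower at day 3. The shares above are with TMM, and library totals also move the median of all genes.

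Like tcu-1, the copper transporter gene tcu-3 was highest in the mutant at day 3. Its level there was 519.9 and 515 CPM against 51.9 and 49.8 in WT, a log2 fold change of 3.35 ± 0.09 (adjusted p 2.29e-14 in edgeR). At day 5 it was 257 and 279 against 219 and 218, at 0.29 ± 0.08 (edgeR adjusted p 0.00485). The WT libraries of day 5 that stood apart for tcu-1 did not do so for tcu-3. Other genes did differ between these libraries, with sod-2 at 120 and 187 CPM. In the opposite direction, eas was at 52.6 and 26.5 and con-10 at 749 and 427. NCU05512, annotated as copper resistance protein Crd2, went the other way at days 1 and 3, at -1.40 ± 0.10 at day 1, -1.62 ± 0.11 at day 3 and 0.57 ± 0.10 at day 5 (edgeR adjusted p 8.81e-08, 1.11e-09 and 9.0e-05). The copper ATPase gene trm-47 differed only at day 5 among the 4 times, at -0.90 ± 0.08 (edgeR adjusted p 9.62e-08).

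In the iron uptake list 4 of 7 were called higher and 2 lower at day 3, with a median of 0.38, and 4 higher and 1 lower at day 5, with a median of 0.44. One of the 7, NCU07362, is a lactate enzyme that the word search caught. Without it 3 of 6 were higher and 2 lower at day 3, with a median of -0.01, and 3 higher and 1 lower at day 5, with a median of 0.18. The 2 peptide synthetase genes, whose enzymes join siderophore building blocks in fungi, moved apart. NCU08441 was at 32.6 and 40.3 CPM in the mutant at day 3 against 5.07 and 5.34 in WT, at 2.81 ± 0.14 (edgeR adjusted p 3.7e-11), and at day 5 the log2 fold change was 3.47 ± 0.16. NCU07119, the neighbour of NCU07117, was at 9.11 and 10.1 CPM in the mutant at day 3 against 29.2 and 34.7 in WT, at -1.73 ± 0.14 (edgeR adjusted p 1.35e-08), and at day 5 at -1.51 ± 0.13. The oxygenase gene and the synthetase gene beside it therefore differed between the strains in opposite directions.

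NCU00023 is a further ferric reductase gene. Its level went from 870.5 ± 25.1 CPM at 12 h to 132 ± 3.67 at day 5 in WT and from 737 ± 14.0 to 204 ± 10.5 in the mutant. Its log2 fold change was -0.24 ± 0.07, -0.38 ± 0.07, 1.23 ± 0.07 and 0.63 ± 0.07 at the 4 times (edgeR adjusted p 0.0242, 0.000377, 1.25e-10 and 7.06e-07). The gene of the repressor, sre (NCU07728), had log2 fold changes of 0.26 ± 0.08 at 12 h, 0.03 ± 0.08 at day 1, -0.44 ± 0.08 at day 3 and -0.09 ± 0.08 at day 5. Of these the 12 h and day 3 values were called (edgeR adjusted p 0.0345 and 0.000153).

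In the iron use list 13 of 24 were higher and 4 lower at day 3, with a median of 0.34, beside 29.4% and 30% of all genes. Its largest differences were of NCU05986, a ferredoxin domain gene, at 1.63, lys-6, the homoaconitase gene of lysine synthesis, at 1.23, and NCU04280, an aconitate hydratase gene, at 1.04. At day 5 the list had 9 higher and 4 lower, with a median of 0.08. The largest differences then were of NCU08707, an iron sulfur assembly gene, at 1.96, NCU00602, a siroheme synthase gene, at -1.35, and NCU04280, at 1.01. At day 1 NCU08707 was at -1.30. In the other metal transport list 9 of 39 were higher and 11 lower at day 3, with a median of -0.11, close to the shares over all genes. The largest there were trm-20, at -2.89 ± 0.10, the zinc transporter gene trm-42, at -2.72 ± 0.09, and the nickel transporter gene trm-34, at 2.48 ± 0.11 (edgeR adjusted p 6.48e-13, 2.52e-13 and 5.69e-12).

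Over the 4 lists the counts of higher and lower genes were 10 and 4 at 12 h, 14 and 12 at day 1, 36 and 18 at day 3, and 33 and 26 at day 5, of 85 genes. Of all genes, 6.53% were higher and 6.51% lower at 12 h, 19.1% and 18% at day 1, 29.4% and 30% at day 3, and 30.6% and 30.9% at day 5. The counts depend on the scaling, since library totals gave 23 higher and 32 lower at day 3. At day 1 library totals gave 36 and 6, and at day 5 28 and 30. That scaling also moved the median of all genes, up at day 1 and down at day 3. The shares of all genes above are with TMM, so these counts have no matching share beside them. At 12 h the count of higher genes was 6 without WT replicate 1, without WT replicate 2 and without mutant replicate 2, and the count of lower genes was 1 without WT replicate 1.

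**Figure D5:**
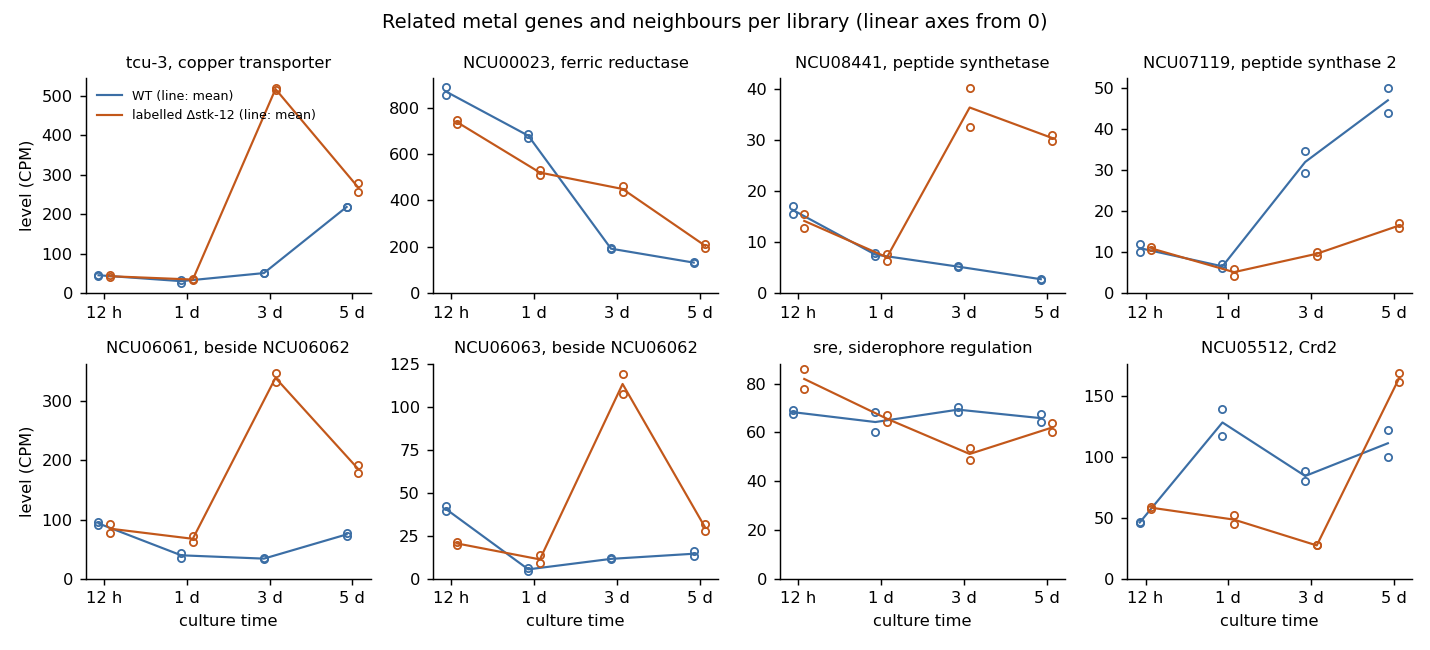
Levels of related metal genes and of the neighbours of NCU06062 in each library by culture time, in CPM on linear axes from 0; circles are libraries, lines join group means, blue is WT and orange the strain labelled Δstk-12. In the mutant at day 3, tcu-3, NCU08441, NCU06061 and NCU06063 stand above WT and NCU07119 and NCU05512 below it.

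Of the 16 loci next to one of the 10 genes, 15 were tested, and 3 were called higher and 8 lower in the mutant at day 3, beside 29.4% and 30% of all genes. The genes on the other sides of tcu-1 and NCU00829, scp and NCU00828, were at -0.64 ± 0.06 and -0.58 ± 0.11 there (edgeR adjusted p 2.79e-07 and 0.000171). The day 3 level of the pair was thus not shared by its neighbours. NCU06062 lies between NCU06063, a fatty acid CoA ligase gene, and NCU06061, an oxidoreductase gene. They were named after their values were seen, so the values are a description and no p-value is given. Their levels in the mutant at day 3 were 113 ± 8.27 and 339.7 ± 10.7 CPM against 11.6 ± 0.365 and 34.1 ± 1.29 in WT. The log2 fold changes were 3.29 and 3.32, beside 3.59 for NCU06062 itself. Around NCU07117, NCU07119 went the other way, and NCU07116 was not called at day 3.

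Conidia are the other cell type such a harvest can hold. Of 11 conidiation markers 10 were found, none was at 0 reads in any library, and their summed level was 2292 and 2423 CPM in the mutant at day 3 against 4076 and 4213 in WT. At day 3, 1 was called higher and 8 lower, and at day 5, 5 higher and 4 lower, where the sums were 5246 and 5190.0 against 3912 and 3075. Those counts stand beside 59.5% and 61.6% of all genes called. By direction the shares were 29.4% higher and 30% lower at day 3, and 30.6% and 30.9% at day 5. The summed level was therefore lower in the mutant at the day when tcu-1 and NCU00829 stood highest, and most markers went with it. In the mutant at day 3 eas was at 23.1 CPM against 828 in WT, con-10 at 150 against 841 and ccg-1 at 1213 against 1646. The marker called higher at day 3, ccg-9, was at 606 against 325. At day 5 the sum was higher while the markers were split, with ccg-1 and con-8 at 2609 and 1489 CPM in the mutant against 1924 and 449.5 in WT. The hydrophobin gene eas was at log2 fold changes of -5.16 at day 3 and -3.82 at day 5, and con-10 at -2.49 and -1.96. Their part in the differences of the 10 genes was not tested.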

How the data were processed

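The authors deposited 1 table with raw read counts and RPKM per gene for 16 libraries. Per the submitters' processing notes the tools were TopHat2 2.0.8b and HTSeq 0.5.4p3; the genome build, strand setting and filters are not given in the sources used here. The RPKM values deposited by the authors matched count, gene length and library total for 100% of 146267 values above 0 (relative tolerance 0.001). In 2 columns, reads assigned to no gene, 4.43% and 6.86%, were left out. Symbols came from the table and from RefSeq (assembly NC12; 9729 of 9730 loci matched), which also gave the order of loci. Promoter and protein sequences were not analysed here.

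Counts were fitted with edgeR 4.0.16 in R 4.3.3: quasi-likelihood, TMM, 8 group means with 8 residual degrees of freedom, filterByExpr (747 genes left out), Benjamini-Hochberg over 8983 genes. CPM uses TMM-scaled totals (factors 0.840 to 1.25). The fit was also run on simulated counts with balanced changes in a small part of the genes of a single group. That setting is unlike the wide changes between the strains here, so it does not check the scaling. Alternatives were library totals, median-ratio factors, no filter, DESeq2 1.42.0, a replicate block, leaving out each library, and only the 4 libraries compared. The number of libraries per group, 2, limits the precision. Replicates differed beyond counting noise, with a chi-square per degree of freedom from 3.91 in WT at day 1 to 22.1 in WT at day 5.

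The 10 genes and the lists were chosen with earlier results of these data known. The p-values printed for list genes picked by the size of their change come from the values that picked them. Named are all 10, the 3 called genes of each list and time with the largest log2 fold change, sre, and the 3 genes most correlated with each of the 10; of these, examples are printed. The list words caught 4 electron transfer, 4 bZIP and 1 ferricytochrome names; counts without them were added after seeing the data.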

Additional observations from a re-analysis of the deposited data

Results flagged for a closer look

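For the 10 genes, 25 step differences between the strains (mutant minus WT, log2) were called in the edgeR fit. These are what drew attention to them. The genes were named with such differences known, so the values are a description. With 2 libraries in each group no test for outlying samples was run.

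From 12 h to day 1 the difference was -0.45 for trm-52, -1.33 for trm-51, 0.64 for NCU06062, -0.96 for NCU08167, 0.54 for NCU06132 and -0.47 for cmt. From day 1 to day 3 it was 7.86 for tcu-1, 6.93 for NCU00829, 0.94 for trm-52, 2.47 for trm-51, 1.69 for NCU07117, 3.43 for NCU06062, 0.99 for NCU08167, 2.41 for NCU06132, 1.63 for NCU07564 and 0.70 for cmt. From day 3 to day 5 it was -6.41 for tcu-1, -5.51 for NCU00829, 0.51 for trm-52, 0.48 for trm-51, -2.005 for NCU06062, 0.95 for NCU08167, -0.67 for NCU06132, -0.93 for NCU07564 and 1.53 for cmt.

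The call of cmt in the first step was lost without any 1 of 4 libraries (-0.34 to -0.40), and that of trm-51 in the last step without any 1 of 5 (0.41 to 0.48). In the step from day 1 to day 3 cmt was at 0.31 and not called with library totals.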

How the results depend on the processing

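The counts of the 10 genes called stayed within 1.5 times under every alternative that kept all libraries, and at day 5 all 10 were called in each fit. Leaving out 1 library gave ranges of 1 to 3 genes called at 12 h, 2 to 6 at day 1, 8 to 10 at day 3 and 2 to 4 for WT from day 3 to day 5. For the wider lists at 12 h the ranges were 6 to 12 higher and 1 to 5 lower. Library totals moved the wider lists to 36 higher and 6 lower at day 1 and 23 higher and 32 lower at day 3; that scaling moves the median of all genes. Without the names caught inside other words, the wider lists had 7 higher and 4 lower genes at 12 h, 14 and 10 at day 1, 31 and 16 at day 3, and 28 and 23 at day 5.

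In WT from day 1 to day 3, trm-52 was called lower with TMM and called higher with library totals. Most other signs that turned were of small differences. With library totals they were 0.024 for NCU07117 at 12 h, 0.013 for trm-52 at day 1, -0.039 for NCU08167 at day 3, 0.27 for trm-52, 0.11 for NCU06062 and 0.33 for NCU07564 in WT from day 1 to day 3, and 0.016 for NCU08167 in the mutant over that step. With only the 4 libraries compared, NCU07117 at 12 h was 0.0058. Leave-one-out ranges that crossed 0 were -0.085 to 0.055 for NCU07117, -0.0068 to 0.18 for NCU00829 and -0.040 to 0.21 for cmt at 12 h. Others were -0.052 to 0.10 for NCU06132 and -0.17 to 0.031 for cmt in WT from day 3 to day 5. In the mutant from day 1 to day 3 they were -0.23 to 0.070 for NCU08167 and -0.073 to 0.16 for cmt, and tcu-1 from 12 h to day 1, mutant minus WT, -0.015 to 0.16. The cause was not tested. Among the single values that kept their sign, 64 lost and 24 gained a call in some alternative, 50 and 13 of them on leaving out 1 library.

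Replicate numbers did not pair the libraries: the correlation of same-numbered deviations was 0.0208 at 12 h, -0.0292 at day 1, -0.00603 at day 3 and -0.0368 at day 5. With the replicate block 3, 5, 9 and 10 of the 10 genes were called at the 4 times, and 1164, 3327, 5319 and 5495 of all genes against 1172, 3337, 5342 and 5530.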

Other observations

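Beside NCU08441 lies a run of loci with its pattern in the later libraries, named after their values were seen. The ABC transporter gene abc-2 was at 51.2 ± 1.80 CPM (SD, n = 2) in the mutant at day 3 and 35.7 ± 0.857 at day 5, against 1.57 ± 0.168 and 1.36 ± 0.00169 in WT. NCU08440, between them, was at 49.6 ± 1.65 and 43.2 ± 1.47 CPM in the mutant against 3.34 ± 0.581 and 3.78 ± 0.180 in WT at the same days. At 12 h all 3 were higher in WT than at any later WT time, with abc-2 at 35.2 ± 0.765, NCU08440 at 25.2 ± 0.0806 and NCU08441 at 16.3 ± 1.09 CPM. On the far side, NCU08443 was at 3.76 ± 0.0589 CPM in the mutant and 3.76 ± 0.649 in WT at day 3.

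NCU03781, the CobW domain gene nearest to cmt in pattern, was at 147 ± 4.88 CPM in the mutant at day 5 and between 19.8 and 46.6 in the other 7 groups. The nickel transporter gene trm-34 was at 276 ± 0.742 CPM in the mutant at day 3 and 49.6 ± 0.512 in WT, and at 51 ± 5.40 and 65.4 ± 2.39 at day 5.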
